A study of Mus musculus with 6 samples.

Results

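Bpifb1, Lyz1, Dcpp1, Dcpp2, Dcpp3, Sbpl and Lipf, 7 genes for proteins that glands secrete, were followed through 6 RNA-seq libraries of the mouse vomeronasal organ. They were chosen by name because earlier work on these counts had seen them mainly in control exposure replicate 1 and pup exposure replicate 3, so their pattern over the libraries is a description and not a finding. All 7 had a row among the 38561 genes of the table, of which 23900 had a count. All animals were males of CD-1, an outbred mouse stock, and the labels state no age and no genetic change for either group. The study put 3 libraries in a pup exposure group and 3 in a control exposure group, and what the control animals met is not described. In all 6, the organ was dissected and its lysate was precipitated with an antibody to phosphorylated S6, a ribosomal protein whose phosphorylation rises in recently active neurons, before low-input cDNA was sequenced. Whether replicates were separate animals or pools is not stated, so p-values measure the spread between libraries, which may be technical.

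The vomeronasal organ is a blind tube in the nasal septum that detects pheromones, and glands around it and in the rest of the nose pour mucus and binding proteins onto its surface. Bpifb1 is a secreted protein of the BPI fold family, made by mucous cells and glands of the airways. Lyz1 and its neighbour Lyz2 are lysozymes, enzymes that cut bacterial cell walls: Lyz1 is known from Paneth cells of the gut and Lyz2 from macrophages and airway cells. Dcpp1, Dcpp2 and Dcpp3 are demilune cell and parotid proteins, secreted by salivary glands. Sbpl is named for its likeness to Sbp, a spermine-binding protein of the prostate. Lipf encodes gastric lipase, a fat-splitting enzyme that in the rat is also the lipase of serous glands of the tongue.

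Total counts were 10590716 to 11240065 in the control exposure libraries and 18199476 to 20871266 in the pup exposure libraries. Markers of vomeronasal neurons were present in every library, and their summed level over 11 genes was close, at 2062 to 2300 CPM. CPM is the usual scaling of counts to a common library total, here corrected for composition with edgeR's TMM. Single markers differed more than the sum. Omp, the most abundant, was at 664 to 922 CPM, the G protein Gnai2 at 145 to 432 CPM and Rtp1 at 105 to 389 CPM. Levels below are on this scale unless counts are named.

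On GRCm38, the GENCODE M21 annotation places the genes in 4 regions, all as protein-coding. Dcpp1 (ENSMUSG00000096445, chr17:23880876-23882853), Dcpp2 (ENSMUSG00000096278, chr17:23880880-23900788), Dcpp3 (ENSMUSG00000057417, chr17:23917458-23919441) and Sbpl (ENSMUSG00000024125, chr17:23953084-23955274) lie within 74399 bases of chromosome 17. Sbp lies between Dcpp3 and Sbpl, and these 5 are the protein-coding genes annotated in that stretch. Bpifb1 (ENSMUSG00000027485, chr2:154190818-154220369) stands in the BPI fold cluster of chromosome 2. Lyz1 (ENSMUSG00000069515, chr10:117287797-117292868) lies 5476 bases from Lyz2, and Lipf (ENSMUSG00000024768, chr19:33961187-33976810) has the acid lipase Lipk 31480 bases away.

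The promoters below are shown because the Dcpp genes are near copies whose reads are hard to tell apart. Sbpl shares their cluster and their libraries. Lyz1 and Lyz2 are neighbours with the same highest libraries, but only Lyz2 was counted in every library. Each window runs from 250 bases before to 50 after the start site, from RefSeq on GRCm38.p6, written 5′ to 3′ on the strand of the gene. Capitals mark the motifs searched on both strands: TATAA (the core of the TATA box), CAGCTG and CATATG (E-boxes) and GGAAGT (an ETS core, written ACTTCC where it lies on the other strand). No matches overlapped each other. The windows are chr17:23880626-23880925 (plus) for Dcpp1, chr17:23898472-23898771 (plus) for Dcpp2, chr17:23917208-23917507 (plus) for Dcpp3, chr17:23955224-23955523 (minus) for Sbpl, chr10:117292819-117293118 (minus) for Lyz1 and chr10:117282223-117282522 (minus) for Lyz2.
Dcpp1: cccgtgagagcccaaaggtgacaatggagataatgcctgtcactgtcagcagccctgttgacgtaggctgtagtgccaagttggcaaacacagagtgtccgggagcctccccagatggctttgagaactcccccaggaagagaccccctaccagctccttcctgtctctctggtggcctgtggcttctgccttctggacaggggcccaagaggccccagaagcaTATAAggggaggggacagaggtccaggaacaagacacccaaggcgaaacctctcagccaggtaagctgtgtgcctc
Dcpp2: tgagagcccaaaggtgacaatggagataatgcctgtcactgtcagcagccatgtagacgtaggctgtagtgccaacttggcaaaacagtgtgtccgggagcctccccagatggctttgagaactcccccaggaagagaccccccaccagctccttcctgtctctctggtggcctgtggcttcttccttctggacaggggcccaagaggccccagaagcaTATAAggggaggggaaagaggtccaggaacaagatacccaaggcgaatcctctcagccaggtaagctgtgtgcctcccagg
Dcpp3: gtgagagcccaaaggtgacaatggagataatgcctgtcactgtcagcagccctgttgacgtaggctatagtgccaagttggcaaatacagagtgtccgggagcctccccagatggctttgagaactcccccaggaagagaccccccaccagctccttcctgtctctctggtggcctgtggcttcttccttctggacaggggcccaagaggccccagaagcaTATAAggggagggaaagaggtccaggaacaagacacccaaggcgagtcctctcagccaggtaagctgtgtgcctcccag
Sbpl: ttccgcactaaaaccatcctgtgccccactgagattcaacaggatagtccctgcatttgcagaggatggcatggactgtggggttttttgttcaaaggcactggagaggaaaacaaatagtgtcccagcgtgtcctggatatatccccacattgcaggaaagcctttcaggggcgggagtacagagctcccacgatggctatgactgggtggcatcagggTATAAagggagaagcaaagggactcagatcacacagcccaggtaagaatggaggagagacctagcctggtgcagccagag
Lyz1: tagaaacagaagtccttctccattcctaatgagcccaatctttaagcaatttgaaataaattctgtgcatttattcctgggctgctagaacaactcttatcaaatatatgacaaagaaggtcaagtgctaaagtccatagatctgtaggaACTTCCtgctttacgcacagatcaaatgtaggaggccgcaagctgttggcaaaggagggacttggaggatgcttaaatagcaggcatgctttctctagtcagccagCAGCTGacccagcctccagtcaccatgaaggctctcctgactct
Lyz2: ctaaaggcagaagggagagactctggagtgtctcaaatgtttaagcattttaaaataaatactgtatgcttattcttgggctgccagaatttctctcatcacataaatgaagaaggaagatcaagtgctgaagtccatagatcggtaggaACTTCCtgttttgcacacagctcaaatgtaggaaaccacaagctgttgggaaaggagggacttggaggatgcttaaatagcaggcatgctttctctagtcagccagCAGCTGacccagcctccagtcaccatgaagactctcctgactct

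The 3 Dcpp windows were 96.9% to 97.7% identical to each other in a global alignment, over aligned bases. Dcpp1 and Sbpl were 66.8% identical, and Lyz1 and Lyz2 83.6%. TATAA was found in 6 of the 8 windows of the 7 genes. The windows without it were that of Lyz1 and 1 of the 2 listed for Bpifb1. The 3 Dcpp windows are near copies, so they are not separate cases. In the 6 windows with TATAA it began 26 to 31 bases before the start site, a placement seen in 2.97% of all 32851 windows. That range of positions, 35 to 25 bases before the start, was set after the sequences had been read, and TATAA anywhere in the window was found in 24.9% of them. Lyz1 and Lyz2 both held CAGCTG, 6 bases past the start site, and GGAAGT on the other strand, 100 bases before it. CAGCTG occurred in 16.3% and GGAAGT in 23.8% of all windows. The only other match in a window of the 7 genes was CATATG, in 1 of the 2 windows listed for Bpifb1, a motif found in 3.91% of all windows. These are matches of letters and do not show that a factor binds.

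Counts of the transcripts are also uncertain between near copies. Of the 50-base words of the longest annotated transcript, 41.7% in Dcpp1, 43% in Dcpp2 and 46.1% in Dcpp3 also occurred in another Dcpp transcript. Sbpl shared 39% of its words with Sbp, and Lyz1 shared 16.1% with Lyz2. Bpifb1 and Lipf shared none. Dcpp1 and Dcpp2 also overlap by 30 exonic bases on the same strand, because an annotated Dcpp2 transcript begins at the first exon of Dcpp1. How reads from shared stretches were counted is not given in the sources used here.

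Together the 7 genes had 37369 counts in control exposure replicate 1 and 57078 in pup exposure replicate 3, which were 0.332% (95% exact Clopper-Pearson interval 0.329 to 0.336) and 0.273% (0.271 to 0.276) of those libraries. The other 4 libraries held 128 counts of them in all: 10 and 2 in control exposure replicates 2 and 3, and 7 and 109 in pup exposure replicates 1 and 2. These 2 libraries, 1 from each exposure group, thus held 99.86% of the 94575 counts. Intervals cover counting error only, since reads without molecular identifiers are not independent molecules.

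**Figure D1:**
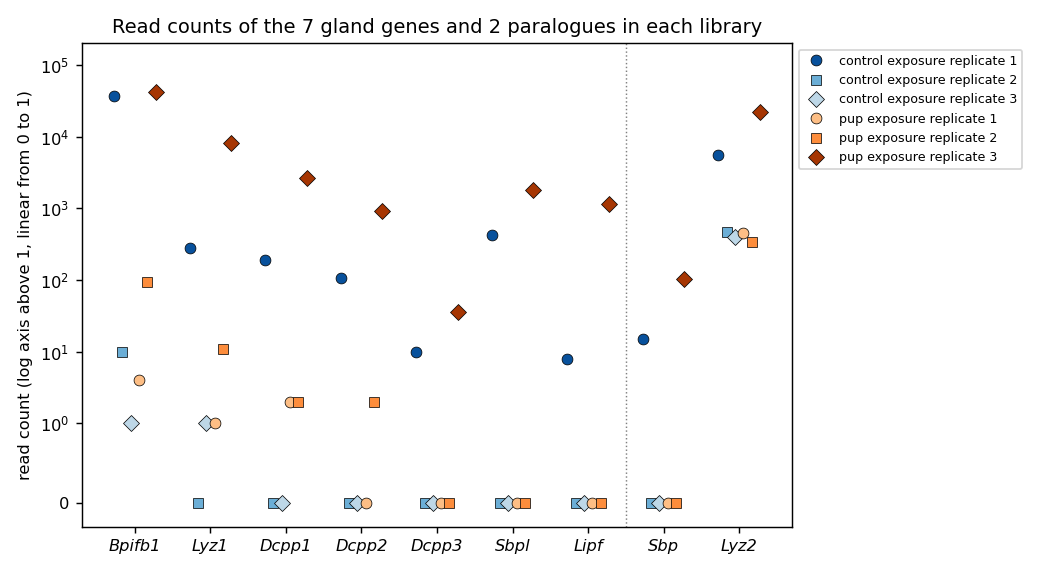
Read counts of the 7 gland genes and, right of the dotted line, of the paralogues Sbp and Lyz2. The vertical axis is logarithmic above 1 and linear from 0 to 1, and each point is 1 library. Control exposure replicate 1 and pup exposure replicate 3 are the 2 highest libraries for each of the 9 genes, with 36360 and 42324 counts of Bpifb1 against at most 94 elsewhere.

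Bpifb1 had 36360, 10 and 1 counts in control exposure replicates 1, 2 and 3, and 4, 94 and 42324 counts in pup exposure replicates 1, 2 and 3. One library of each group was thus high and the others near 0, and the groups overlapped. In CPM from library totals alone, control exposure replicate 1 was 3435-fold above control exposure replicate 2, and pup exposure replicate 3 was 440-fold above pup exposure replicate 2. Bpifb1 was the most abundant of the 7 genes in both libraries, at 2850 and 2093 CPM, or 788 and 579 CPM per kilobase of exon.

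Lyz1 had 277, 0 and 1 counts in the control exposure libraries and 1, 11 and 8224 in the pup exposure libraries, in replicate order. The next highest library was again pup exposure replicate 2. Its level was 21.7 CPM in control exposure replicate 1 and 407 CPM in pup exposure replicate 3. Lyz2 was counted in every library, with 5628, 464 and 397 counts after control exposure and 448, 337 and 21729 after pup exposure. The same libraries were its highest, at 441 and 1074 CPM against 11.9 to 62 CPM in the other 4. Lyz1 made up 4.69% (exact interval 4.17 to 5.26) of the Lyz1 and Lyz2 counts in control exposure replicate 1 and 27.5% (27 to 28) in pup exposure replicate 3. It made up 3.16% (1.59 to 5.59) in pup exposure replicate 2, and 0 to 0.251% in the remaining 3 libraries. Macrophage markers did not move with Lyz2: their summed level over 10 genes was 124 CPM in control exposure replicate 1 and 75.6 CPM in pup exposure replicate 3, and 68.9 to 111 CPM in the others.

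Dcpp1 had 190, 0 and 0 counts in the control exposure libraries and 2, 2 and 2607 in the pup exposure libraries. Dcpp2 had 106, 0 and 0, then 0, 2 and 924, and Dcpp3 had 10, 0 and 0, then 0, 0 and 36. In both libraries the order was Dcpp1, Dcpp2, Dcpp3, also per kilobase of exon (24.1, 11.4 and 1.12 CPM per kilobase in control exposure replicate 1 and 209, 62.4 and 2.55 in pup exposure replicate 3). Of the Dcpp counts, Dcpp1 took 62.1% (exact interval 56.4 to 67.6) in the first and 73.1% (71.6 to 74.5) in the second, intervals that do not overlap. Dcpp2 took 34.6% (29.3 to 40.3) and 25.9% (24.5 to 27.4), and Dcpp3 took 3.27% (1.58 to 5.93) and 1.01% (0.708 to 1.39). Since the 3 genes share words, these splits depend on how shared reads were assigned.

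Sbpl had 418, 0 and 0 counts in the control exposure libraries and 0, 0 and 1818 in the pup exposure libraries. It was therefore at 0 in all 4 of the other libraries, where a count of 0 allows up to 0.147 to 0.283 CPM at their depths, from library totals alone, taking 3 counts as the limit. Against that limit Sbpl was at least 131-fold higher in control exposure replicate 1 than in control exposure replicate 3, and at least 592-fold higher in pup exposure replicate 3 than in pup exposure replicate 2. Sbp, no member of the chosen genes, had 15, 0 and 0 counts and then 0, 0 and 103, and was 3.46% (exact interval 1.95 to 5.65) and 5.36% (4.4 to 6.47) of the Sbp and Sbpl counts. All 5 protein-coding genes of the chromosome 17 stretch thus had counts in both libraries. The serine proteases on either side, by contrast, were Prss21, at 0 in every library, and Prss30, with 252 to 1053 counts in every library.

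Lipf had 8, 0 and 0 counts in the control exposure libraries and 0, 0 and 1145 in the pup exposure libraries. It came close to being seen in 1 library alone, since 98.9% of its summed CPM lay in pup exposure replicate 3. Its level was 0.627 CPM in control exposure replicate 1, which was at least 2.51-fold above control exposure replicate 3 by the limit of 3 counts, and 56.6 CPM in pup exposure replicate 3. Relatives of Lipf were unlike it: among the acid lipases, Lipa, the lysosomal enzyme, was at 19.9 to 34.2 CPM in the 6 libraries, and Lipk had no count in control exposure replicate 1 and 22 to 109 counts in the others. Of 11 listed genes of stomach gland cells, 7 were at 0 in every library, among them the pepsinogen Pgc, the proton pump subunits Atp4a and Atp4b, and Gif (intrinsic factor). The 4 with counts were Tff2, Ctse, Tff1 and Gkn3, and the list summed to 18.5 CPM in control exposure replicate 1, 40.5 CPM in pup exposure replicate 3 and 0.177 to 56.7 CPM in the others. Tff2, a trefoil peptide of mucous cells that the mucus list holds too, made up most of it, at 17.7 and 39.1 CPM in those libraries and 52.8 CPM in control exposure replicate 3.

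The 2 libraries did not hold the genes in the same proportions. Bpifb1 was lower in pup exposure replicate 3 than in control exposure replicate 1, with a CPM ratio of 0.734 (exact counting interval 0.724 to 0.745), whereas the other 6 genes were higher there. The ratio was 2.27 (1.1 to 5.13) for Dcpp3, 2.74 (2.47 to 3.06) for Sbpl, 5.5 (4.49 to 6.79) for Dcpp2 and 8.65 (7.47 to 10.1) for Dcpp1. It reached 18.7 (16.6 to 21.2) for Lyz1 and 90.3 (45.7 to 210) for Lipf. Among the paralogues, Lyz2 had a ratio of 2.44 (2.36 to 2.51) and Sbp one of 4.33 (2.51 to 8.02). Set against 1000 counts of Bpifb1, which removes depth and scaling, control exposure replicate 1 held 7.62 counts of Lyz1, 11.5 of Sbpl, 5.23 of Dcpp1 and 0.22 of Lipf. Pup exposure replicate 3 held 194, 43, 61.6 and 27.1. In pup exposure replicate 2 Lyz1 was 11 of the 105 counts of Lyz1 and Bpifb1, or 10.5% (5.35 to 18), against 0.756% (0.67 to 0.85) in control exposure replicate 1 and 16.3% (15.9 to 16.6) in pup exposure replicate 3. These are comparisons of single libraries with no replicate check.

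**Figure D2:**
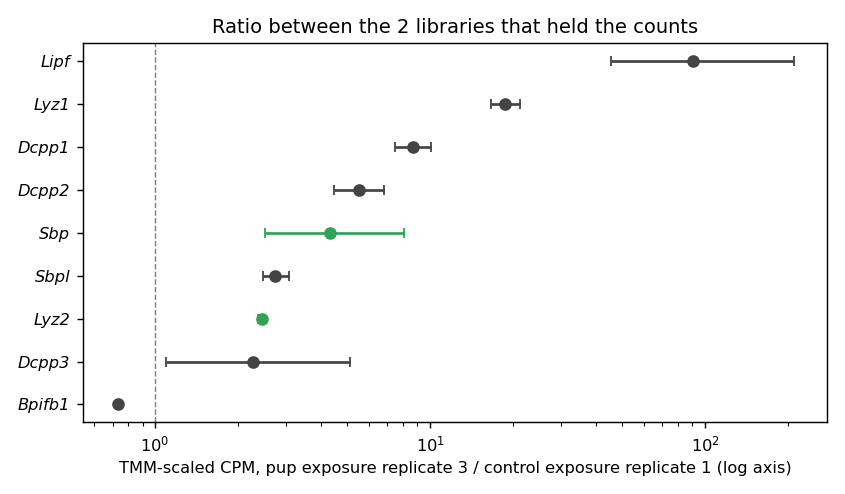
Ratio of TMM-scaled CPM in pup exposure replicate 3 to that in control exposure replicate 1, on a logarithmic axis, with 95% exact counting intervals. Black points are the 7 gland genes and green points the paralogues Sbp and Lyz2. The ratio runs from 0.734 for Bpifb1 to 90.3 for Lipf.

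**Figure D3:**
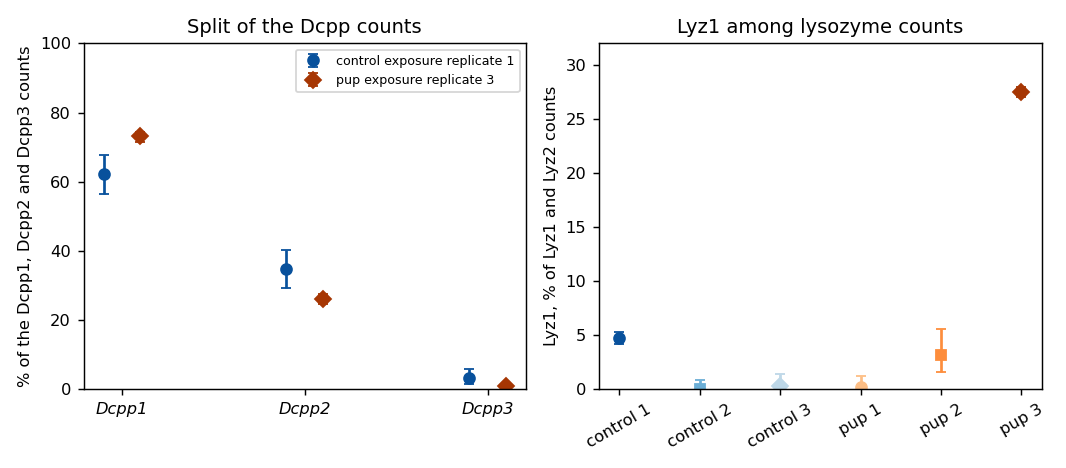
Left, the percentage of Dcpp1, Dcpp2 and Dcpp3 counts that each gene took in the 2 libraries that held them. Right, the percentage of Lyz1 and Lyz2 counts that were Lyz1 in each of the 6 libraries. Bars are 95% exact Clopper-Pearson intervals. Lyz1 stands at 27.5% in pup exposure replicate 3 and at no more than 4.69% elsewhere.

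The comparison of the study, pup exposure against control exposure, was fitted over all genes with edgeR's quasi-likelihood test. Of the 7 genes only Bpifb1 passed the filter on low counts, which asks for a minimum level in at least 3 libraries, and the other 6 were not tested. Bpifb1 was at 950 ± 1645 CPM after control exposure and 699 ± 1207 CPM after pup exposure (SD, n = 3 each), an SD larger than the mean in both groups. Its log2 fold change was -0.44 (SE 2.44, edgeR adjusted p = 0.956), far inside the spread between libraries. The fit called 0 of 15498 genes in either direction at an adjusted p of 0.05, a background of 0%, and an unadjusted p under 0.05 was reached by 978 genes upward (6.31%) and 723 downward (4.67%). DESeq2 called 50 genes higher (0.406%) and 77 lower (0.626%), and limma-voom 1 higher (0.00645%) and 7 lower (0.0452%). DESeq2 gave none of the 7 genes an adjusted p, so it could call none of them. Of the 7, limma-voom tested only Bpifb1 and did not call it (limma-voom adjusted p = 0.971). The Bpifb1 value depended on single libraries. It turned to 10.21 when control exposure replicate 1 was left out, and kept its sign at -9.07 when pup exposure replicate 3 was. Leaving out pup exposure replicate 1 turned it to 0.14, and leaving out replicate 2 of that group to 0.10. With the replicate number as a block it was 1.87.

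Without the filter on low counts, edgeR tested 23900 genes and called 61 higher (0.255%) and 59 lower (0.247%) after pup exposure. Among the 61 were 4 of the 7 genes: Lyz1 (log2 fold change 4.22, edgeR adjusted p = 6.87e-14), Lipf (6.26, adjusted p = 7.48e-13), Dcpp1 (3.11, adjusted p = 8.16e-07) and Dcpp2 (2.45, adjusted p = 0.0142). Lyz1 and Lipf had the smallest adjusted p of all genes in that fit. Those values come from the counts that chose the genes, and pup exposure replicates 1 and 2 together held 12 counts of Lyz1, 4 of Dcpp1, 2 of Dcpp2 and none of Lipf. Sbpl (1.48, adjusted p = 0.144), Dcpp3 (1.12, adjusted p = 0.804) and Bpifb1 (-0.40, adjusted p = 0.802) were not called. When pup exposure replicate 3 was left out of the unfiltered fit, a choice made after seeing the data, the log2 fold change of Lyz1 was -4.97 (edgeR adjusted p = 0.00548) and that of Dcpp1 was -5.76 (adjusted p = 0.0159). For Sbpl it was -10.45 (adjusted p = 2.84e-09) and for Bpifb1 -9.06 (adjusted p = 5.69e-22). In that fit edgeR did not call Dcpp2 (-5.93, adjusted p = 0.128), Dcpp3 (-5.14, adjusted p = 0.596) or Lipf (-4.84, adjusted p = 0.621). When control exposure replicate 1 was left out instead, the values were 11.04 for Lyz1, 12.52 for Dcpp1, 12.00 for Sbpl and 10.24 for Bpifb1. Where a group is at 0 throughout, such fitted values depend on the prior count and are no bound. The signs in these fits follow from how the genes were chosen, and each value rests on 1 high library. The unfiltered fit also gave smaller errors: for Bpifb1 with all 6 libraries the SE was 0.51, against 2.44 with the filter kept. Its p-values thus understate the spread of Bpifb1 between libraries, and no support is drawn from them. Other libraries also moved calls in the unfiltered edgeR fit. Sbpl was called higher when pup exposure replicate 1 (2.06, adjusted p = 0.00474) or replicate 2 (2.02, adjusted p = 0.0243) was left out. Dcpp2 was not called when control exposure replicate 2 (1.75, adjusted p = 0.501) or replicate 3 (1.86, adjusted p = 0.212) was left out. Over the unfiltered fits that each left out 1 library, the 6 genes other than Bpifb1 had a negative value in the one lacking pup exposure replicate 3. They had positive values in the others. With the filter kept, edgeR called 0 genes in each fit that left out 1 library. There Bpifb1 was -9.07 (SE 3.37, edgeR adjusted p = 0.416) without pup exposure replicate 3. Lyz1, tested without control exposure replicate 2, was 3.51 (edgeR adjusted p = 0.683).

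**Figure D4:**
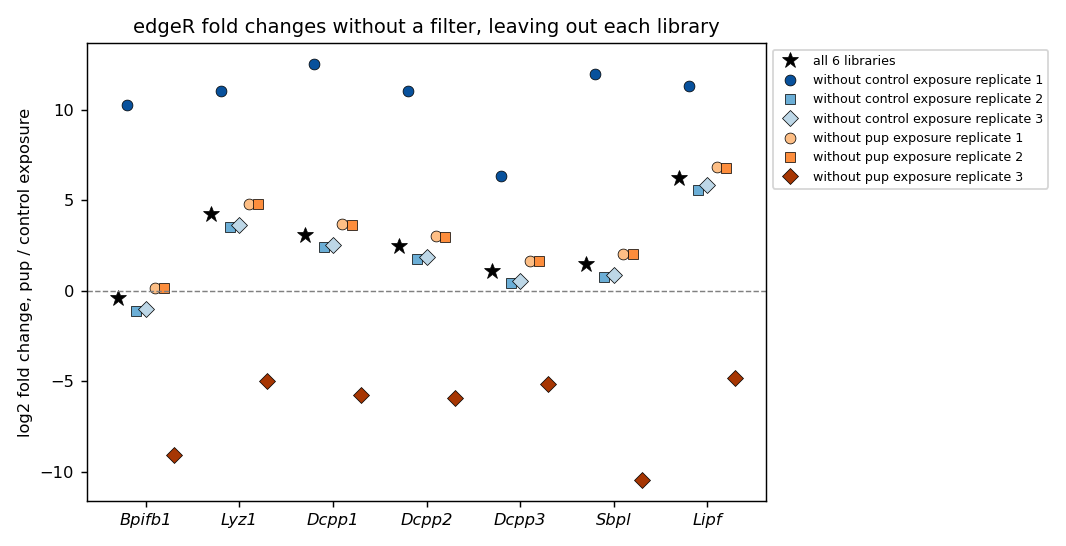
Log2 fold change of pup exposure over control exposure for the 7 genes in edgeR without a filter on low counts. The star is the fit of all 6 libraries, and the other points each leave out 1 library. All 7 genes lie below 0 without pup exposure replicate 3 and above 6 without control exposure replicate 1.

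Over all genes tested, control exposure replicate 1 and pup exposure replicate 3 were the 2 highest libraries for 514 of 15498 (3.32%). Because the filter drops genes seen in few libraries, the count was also made over genes with at least 50 counts in all, a choice made after seeing the data, which gave 555 of 16227 (3.42%). Of these, 25 genes (0.154%) had at least 90% of their summed CPM there, and 20 (0.123%) also had those libraries as the 2 highest. Among the genes tested these counts were 5 (0.0323%) and 4 (0.0258%). Bpifb1 aside, the 10 genes tested with the largest share there began with 2310003L06Rik (96.9%), Gm14744 (94.9%), Lyz2 (91.6%), Scgb1b27 (90.5%) and Cd177 (87.5%). After them came Scgb2b27 (87.3%), Aplnr (86.7%), Obp1b (86.6%), Obp1a (84.1%) and Gab3 (83.9%). The chosen genes are 6 of the 20, and Dcpp3 falls under the 50 counts. The 14 others were Lyz2, Sbp, 2310003L06Rik, Gm14744, Gp2, Cabs1, Clca1, Olfm5, Smr3a, Bpifb5, Tmem171, Hhatl, Spink4 and Arhgap27os3, named after their values were seen.

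The counts of some of these others were as follows. Smr3a, a salivary gland protein (15, 0 and 0 counts after control exposure, and 0, 0 and 39 after pup exposure), Cabs1 (40, 0 and 0, then 0, 1 and 339) and 2310003L06Rik (241, 2 and 1, then 8, 24 and 638) lie between positions 87969459 and 88008534 of chromosome 5. Other salivary genes of chromosome 5 were not seen in the same way: Prol1 was at 0 in every library, and Smr2 had 1 count in pup exposure replicate 3 and none elsewhere. Tmem171 (38, 3 and 0 counts, then 0, 0 and 10), Hhatl (37, 0 and 0, then 0, 6 and 9) and Arhgap27os3 (43, 1 and 0, then 0, 3 and 3) had few counts, most of them in control exposure replicate 1. Gp2, a glycoprotein of secretory granules, had 244, 0 and 0 counts and then 0, 0 and 119. Clca1, a secreted protein of goblet cells, had 32, 0 and 0 and then 0, 0 and 48. Gp2 thus resembled Bpifb1 in its higher CPM in control exposure replicate 1, while Cabs1 resembled Lyz1 in being higher in pup exposure replicate 3. On the X chromosome, Gm14744 (152, 5 and 6 counts, then 36, 29 and 1392) lay in 1 stretch, positions 77864758 to 78192292, with the odorant-binding proteins Obp1a (178, 26 and 24, then 164, 96 and 1672) and Obp1b (123, 5 and 4, then 50, 33 and 451), for which these libraries were also the 2 highest.

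Likeness was measured as the Pearson correlation of log2(CPM + 1) over the 6 libraries with the mean standardised profile of the 7 genes, as a description over 6 points that share depth and library. The genes tested with the highest r were Stradb (0.992), Gm14744 (0.987), Fam166b (0.986), Cldnd1 (0.978), Atp8a2 (0.977), 2310003L06Rik (0.973), Cpxm1 (0.962), Obp1b (0.954), Gm13131 (0.953) and Obp1a (0.936). The correlation takes no account of the size of the difference: Stradb had 159, 87 and 52 counts after control exposure and 152, 237 and 301 after pup exposure, and so was well covered in every library. Among the 7 themselves, r ran from 0.70 for Bpifb1 with Lipf to 0.99 for Dcpp2 with Sbpl, and it was higher still between Lyz1 and each Dcpp gene and among the Dcpp genes.

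Genes of glands, mucus and other cell types were counted in 18 lists, with 139 tested genes, of which 7 had those libraries as the 2 highest, and 11 of 146 genes with at least 50 counts. The background over all genes is 3.32% and 3.42%. No list gene was called in edgeR. In summed level the libraries were the 2 highest for 3 of the lists. For the BPI fold proteins the sum was 1137 and 646 CPM against 102 to 342 CPM elsewhere, mainly through Bpifa1 (678 and 298 CPM) and Bpifa2 (278 and 210 CPM). Bpifb5, the neighbour of Bpifb1, had 98, 0 and 1 counts and then 5, 6 and 18. The lysozyme list stood at 443 and 1075 CPM through Lyz2, with 4 of its 7 genes at 0 throughout. The salivary gland list stood at 326 and 353 CPM, mainly through Bpifa2, which it shares with the BPI fold list. Car6, a secreted carbonic anhydrase, added 114 CPM in pup exposure replicate 3 but 22.3 CPM in control exposure replicate 1, below its 98.8 CPM in control exposure replicate 3. Of the 17 salivary genes with a row, 5 were at 0 throughout. Of the 6 with at least 50 counts, 2 had those libraries as the 2 highest. Control exposure replicate 3 was close behind in that list, at 283 CPM.

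Other lists did not follow these libraries in summed level. The 16 mucus genes with a row summed to 34074 and 33656 CPM there and 39493 to 56493 CPM elsewhere. Dmbt1 made up nearly all of it, at 33420 and 33051 CPM, so the sum says little about the rest. Of the 13 mucus genes with at least 50 counts, 2 had those libraries as the 2 highest, Gp2 and Clca1, beside 3.42% of all such genes. Serous gland proteins, led by Wfdc18 and the iron-binding Ltf, were highest in control exposure replicate 3 at 116760 CPM, a library with 2 counts of the 7 genes. That rank depends on the scaling, since the TMM factor of 0.605 raises the CPM of that library. Wfdc18 was 613627 of its 10590716 counts and 1378626 of the 20871266 in pup exposure replicate 3, a larger share. The sum for genes of the acinar cell machinery ran only from 936 to 1224 CPM. Single genes of that list differed more, such as the secretory transcription factor Xbp1, at 89.4 to 222 CPM, and Chrm1, at 2.52 to 40.5 CPM. Ciliated cell genes ran from 412 to 1012 CPM, cartilage and bone genes from 22 to 80.1 CPM and skeletal muscle genes from 5.39 to 21.3 CPM, and in none of these were both libraries highest. Whether a difference in dissection, or in the glands caught with the organ, goes with the counts of the 7 genes was not tested. In bulk tissue more cells of a type and more RNA per cell cannot be told apart.

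**Figure D5:**
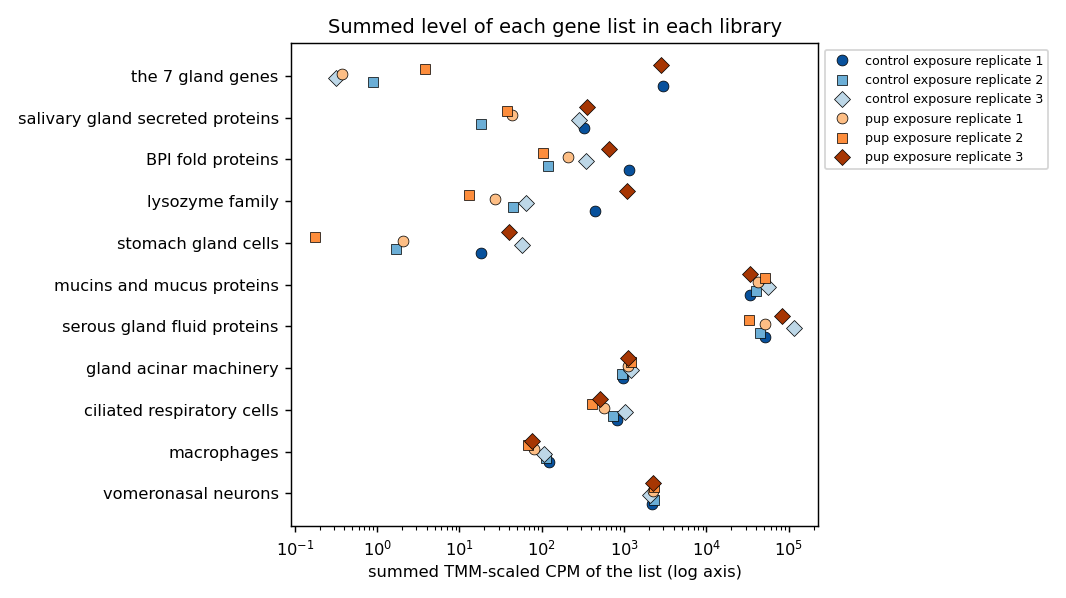
Summed TMM-scaled CPM of the 7 gland genes and of 10 gene lists in each library, on a logarithmic axis. The 7 genes stand at 2929 and 2822 CPM in control exposure replicate 1 and pup exposure replicate 3 and at 0.313 to 3.86 CPM in the other 4. The sum of the vomeronasal neuron genes lies between 2062 and 2300 CPM in all 6, though single genes of that list differ more.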

How the data were processed

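The authors deposited whole-number read counts per Ensembl gene, not normalized, for 6 libraries. Per the submitters' processing notes, reads were placed on GRCm38; the sources used here name no aligner, counter or strand setting. Names came from GENCODE M21, which matched 36639 of 38561 IDs (the others held 0.172% to 0.233% of counts). Genes were kept by filterByExpr (minimum count 10, total 15), scaled by TMM (factors 0.605 to 1.39) and fitted with edgeR 4.0.16 in R 4.3.3 (intercept and group), with Benjamini-Hochberg adjustment over all genes tested and a threshold of 0.05. The fit was tested on simulated data. Standard errors came from the F statistic. Alternatives were other scalings, filters, DESeq2 1.42.0, limma-voom (limma 3.58.1), a replicate block, other pseudocounts and leaving out libraries. No pair of replicates looked like a repeated library, chi-square over its degrees of freedom being 86.2 to 300 within groups. The depth of 10590716 to 20871266 counts limits a gene at 0 to 3 counts. Named genes are the 7 members, up to 4 genes per list by mean CPM, their paralogues, and the 10 genes most alike or most concentrated, and others are said to be chosen after their values were seen. Neighbours in the genome, Gnai2, Smr3a, Lipk, Bpifb5, Prol1, Smr2 and the stomach genes at 0 were also chosen so. Members and lists were chosen with earlier results of these data known. Proportions have exact intervals from scipy 1.17.1, and alignments were made with Biopython 1.88.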

Additional observations from a re-analysis of the deposited data

How the results depend on the processing

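The count of genes called, 0 in each direction, was 61 higher and 59 lower without a filter, 50 and 77 in DESeq2, and 1 and 7 in limma-voom. It stayed at 0 with single libraries left out, and when the filter was dropped as well, a choice made after seeing the data, it was 30, 15 and 42 higher and 47, 22 and 65 lower without control exposure replicates 1, 2 and 3. Leaving out the pup exposure libraries in the same order gave 133, 24 and 31 higher and 52, 33 and 60 lower. The log2 fold change of Bpifb1 (-0.44) ran from -9.07 to 10.21 with single libraries left out, and the replicate block turned it to 1.87. Without a filter, and with single libraries left out, the range was -4.97 to 11.04 for Lyz1, -5.76 to 12.52 for Dcpp1, -5.93 to 11.03 for Dcpp2, -5.14 to 6.35 for Dcpp3, -10.45 to 12.00 for Sbpl and -4.84 to 11.33 for Lipf. Each lower end came without pup exposure replicate 3 and each upper end without control exposure replicate 1. The log2 ratio of pup exposure replicate 3 to control exposure replicate 1 was -0.45 for Bpifb1, and -0.52 with RLE scaling, -0.67 with library totals only, -0.39 with totals that leave out the 50 most abundant genes and -0.67 after thinning to the smallest library, an alternative chosen after seeing the data. For the other 6 genes summed it was 3.21, and 2.98 with library totals only and 2.96 after thinning. All 7 genes had those libraries highest under each scaling. Over genes tested that count was 514, and 337 with library totals only. For list genes it was 7, and 10 with library totals only and 11 over list genes with at least 50 counts. Of the 10 most alike genes, 4 were shared with library totals only, 6 over genes with at least 50 counts and 0 with Spearman's correlation, and the cause was not tested. No pairing by replicate number was evident: deviations of same-numbered libraries correlated at -0.07, 0.18 and 0.12, and those of differently numbered ones at -0.32 to 0.18. With so few libraries per group, these values cannot exclude a paired design. Members at 0 are limited by depth to under 3 counts per library.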

Other observations

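A second set of gland genes had a different pattern, with control exposure replicate 3 high as well, and it is described here after its values were seen. Car6, a secreted carbonic anhydrase of salivary and nasal glands, had 285, 6 and 632 counts in control exposure replicates 1, 2 and 3, and 43, 33 and 2310 counts in pup exposure replicates 1, 2 and 3. Tff2, a trefoil peptide of mucous gland cells, had 226, 8 and 338 counts and then 37, 5 and 791. Muc5ac, a gel-forming mucin of surface goblet cells, had 219, 1 and 387 counts and then 163, 48 and 1984, and Mup5, a secreted lipocalin, had 388, 17 and 696 and then 298, 79 and 7745. All 4 genes were thus high in control exposure replicate 3, the library in which the 7 gland genes had 2 counts, and low in control exposure replicate 2 and pup exposure replicate 2. The same 3 libraries were the highest for Bpifa2, a BPI fold protein of the parotid gland, with 3541, 0 and 935 counts and then 377, 22 and 4257. Secretoglobins of chromosome 7, named after their values were seen, were highest in pup exposure replicate 3: Scgb1b27 had 10, 0 and 53 counts and then 11, 9 and 1750.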
